A study of Mus musculus with 18 samples.

Results

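The effect of a guide against Tgfbr2 was compared between tumor and premalignant esophageal organoids of the mouse. For every gene, the difference between sgTgfbr2 and sgScr (the control guide) in the premalignant libraries was subtracted from the same difference in the tumor libraries, and this difference of effects is called the stage contrast here. It used 12 of the 18 samples of the series and 15671 genes that passed a filter on low counts, of 24394 symbols shared by both count tables. All libraries were declared Trp53-/- with Myc OE (Myc overexpression) and sgCdkn2a, a guide against Cdkn2a, so the control groups carry these alterations too. The premalignant stage had 3 sgScr libraries and 4 sgTgfbr2 libraries, the latter in 2 numbered lines with 2 libraries each, and the tumor stage had 3 sgScr and 2 sgTgfbr2 libraries. What the line numbers stand for, and whether the tumor libraries come from 1 clone or several, is not given in the labels. The listed culture medium of every group held 2 µM A83-01, which blocks type I receptors of the TGF-beta family, and Noggin, a BMP antagonist. The origin of the replicates (cultures or animals) is not stated, and the p-values therefore reflect only variation among the libraries at hand, possibly technical. Stage and count table coincide. A shift common to both guide groups of a table cancels in the stage contrast, but anything else that differs between the tables cannot be told apart from stage.

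TGF-beta signals through a complex of the type II receptor, encoded by Tgfbr2, and the type I receptor, encoded by Tgfbr1. The activated type I receptor phosphorylates the transcription factors Smad2 and Smad3, which enter the nucleus with Smad4, and inhibitory proteins such as Smad6, Smad7 and SnoN (Skil) limit the signal. In stratified epithelia the pathway is known as a brake on proliferation and as a regulator of differentiation, matrix and cell plasticity.

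Libraries held 15379233 to 21747606 counts over 15539 to 16690 genes with a count. Levels below are normalized CPM (CPM over the TMM-scaled library size, on 1 scale for all 12 libraries), listed by replicate number with line 1 before line 2. The libraries labelled tumor differed from the premalignant ones in marker genes of other tissues, and these differed between the guide groups of the tumor table. The summed level of 14 skeletal muscle markers was 8.69 to 14.4 in the premalignant libraries, 29176 to 31693 in tumor sgScr and only 232 to 291 in tumor sgTgfbr2. The sum of 12 gastric gland markers reached at most 2.71 in the premalignant libraries and 1.12 in tumor sgScr, against 30914 to 35559 in tumor sgTgfbr2. Gkn2 and Tff1, gastric pit cell genes, had no count in the 3 other groups. The sum of 10 pancreatic acinar markers was 7926 to 10104 in tumor sgTgfbr2 and at most 3.29 elsewhere. Nearly all of it came from Clps (123604 and 101038 counts) and Pla2g1b (54221 and 40792). Cpa1 and Pnlip had no count there, and Prss2, Cel, Cpb1 and Ctrb1 had at most 14 in a library. Cela1 (452 and 373 counts, at most 27 in any library of the other groups) and Amy2a5 (189 and 198, at most 8) were higher in tumor sgTgfbr2 too. The members were thus divided, and whether acinar cells were present was not tested. Fibroblast markers summed to at most 4.25 in the premalignant libraries, against 4140 to 4426 in tumor sgScr and 2557 to 2606 with the guide in tumor libraries, and immune markers to at most 55.2, 1346 to 1446 and 1031 to 1174. All 10 squamous epithelial markers were counted in every group, and their sum was 11276 to 11971 in premalignant sgScr, 5473 to 8615 in premalignant sgTgfbr2, 147537 to 158297 in tumor sgScr and 30533 to 32417 in tumor sgTgfbr2. In bulk libraries fewer cells of a type and less RNA per cell cannot be told apart, and in the tumor table the guide and the tissue content of the libraries cannot be told apart either.

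**Figure D1:**
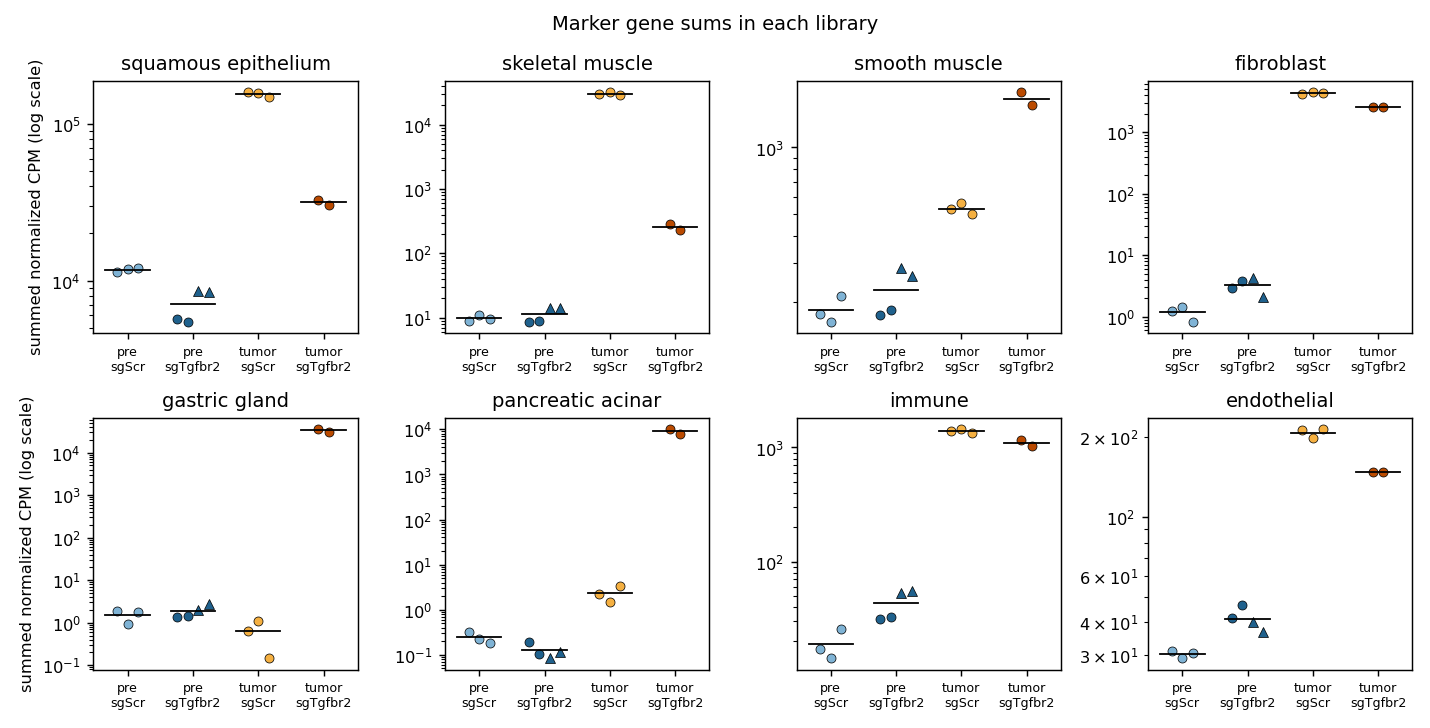
Summed normalized CPM of marker gene lists in each of the 12 libraries (log axis), by group, with the group mean as a bar and triangles for premalignant line 2. Skeletal muscle markers are highest in tumor sgScr. The gastric gland and pancreatic acinar sums are high in tumor sgTgfbr2 alone, the acinar sum almost only through Clps and Pla2g1b.

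Tgfbr2 itself fell in both tables. Its level was 173, 172 and 199.5 in premalignant sgScr and 113, 114, 95.5 and 78.1 in premalignant sgTgfbr2. In the tumor libraries it was 148, 142 and 159 in sgScr and 70.4 and 70.8 in sgTgfbr2. The groups did not overlap in either table, and no library was without the transcript. The log2 fold change was -0.85 ± 0.12 (SE; adjusted p = 8.79e-05) in the premalignant and -1.08 ± 0.15 (adjusted p = 1.87e-05) in the tumor table, and the stage contrast was -0.23 ± 0.19 (95% interval -0.64 to 0.18, adjusted p = 0.352). With line 1 alone, where the premalignant fall was smaller (-0.67, against -1.06 in line 2), the stage contrast passed at -0.41 (adjusted p = 0.0314). The guide's target site is not given in the labels, and a small insertion or deletion need not change a transcript count. Tgfbr2 lies on chromosome 9 at 116087695 to 116175363 (GRCm38).

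Smad3, the signal transducer of the pathway, rose in the premalignant table, and its tumor effect was smaller and did not pass the threshold. It stood at 85.7, 79.0 and 96.4 in premalignant sgScr and at 149.5, 155, 192 and 157 in premalignant sgTgfbr2, which did not overlap. In tumor sgScr it was 48.1, 45.4 and 49.5, against 53.4 and 64.1 in tumor sgTgfbr2, which did not overlap either. The effects were 0.91 ± 0.11 (adjusted p = 3.23e-05) and 0.30 ± 0.14 (adjusted p = 0.0678) on the log2 scale, and they differed by -0.61 ± 0.18 (adjusted p = 0.01). Without tumor sgTgfbr2 replicate 1 this difference did not pass (-0.48, adjusted p = 0.0713). Trp53 transcripts, counted in all 12 libraries, fell in both tables and by more in the tumor table (-0.45 ± 0.11 and -1.26 ± 0.14, stage contrast -0.81 ± 0.18, adjusted p = 0.00175). Cdkn2a, a cell cycle inhibitor gene and itself a guide target in every group, was at 243 to 346 in all 7 premalignant libraries. It was at 0.649, 1.42 and 0 in tumor sgScr and at 176 and 136 in tumor sgTgfbr2, so the stage contrast was 7.49 ± 0.43 (adjusted p = 1.92e-09) with no premalignant change past the threshold (0.23 ± 0.21, adjusted p = 0.438). Myc passed the threshold in neither table and its effects were close (0.44 ± 0.18 and 0.40 ± 0.22, stage contrast -0.04 ± 0.28, adjusted p = 0.948). Its level was 278 to 586 in the premalignant and 53.3 to 92.8 in the tumor libraries.

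Genes were sorted by whether both effects passed an adjusted p of 0.05 and by their signs. The premalignant effect called 5717 genes (36.5% of those tested), the tumor effect 9232 (58.9%) and the stage contrast 7762 (49.5%), of which 3924 (25.0%) had the higher effect in the tumor table and 3838 (24.5%) the lower. Both effects called 3547 genes (22.6%). Of these, 1976 moved alike (12.6% of the genes tested), 1126 of them higher in both tables (7.19%) and 850 lower in both (5.42%). The other 1571 moved oppositely (10.0%), 738 of them higher in the premalignant and lower in the tumor table (4.71%) and 833 lower in the premalignant and higher in the tumor table (5.32%). Of the alike genes 822 (41.6%) also passed the stage contrast, so their effects differed in size. The tumor effect was the larger in 1471 of the 1976 alike genes and in 10570 of all 15671 genes tested. For 895 alike genes, and for 4129 of all genes tested, the 95% interval of the stage contrast lay within a 2-fold difference. Without premalignant sgScr replicate 2 the premalignant calls fell to 3810, the opposite genes to 1036 and the alike genes that differ in size to 535, while the alike genes came to 1363.

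The tumor effect called 62.0% of the premalignant calls and 57.1% of the genes that the premalignant effect did not call. Genes higher with the guide in the premalignant table were called higher in the tumor table in 39.0% and lower in 25.6%. Genes lower in the premalignant table were called lower in 30.0% and higher in 29.4%. Across the 15671 genes, which are not independent and share libraries, Spearman's rho between both effects was 0.046 and Pearson's r 0.054, with the same sign in 49.5%. Over the 9695 genes with a mean of at least 5 CPM in both tables rho was 0.098 and the same sign was seen in 52.2%. The share of genes with all libraries of the guide groups apart in both tables was 31.5% (4934 genes), and 1830 of the 1976 alike and 1446 of the 1571 opposite genes were among them. The authors' deposited tables, read with the same threshold, gave 1984 alike and 1606 opposite genes. They shared 1749 of the alike (88.5%) and 1372 of the opposite genes (87.3%) found here.

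**Figure D2:**
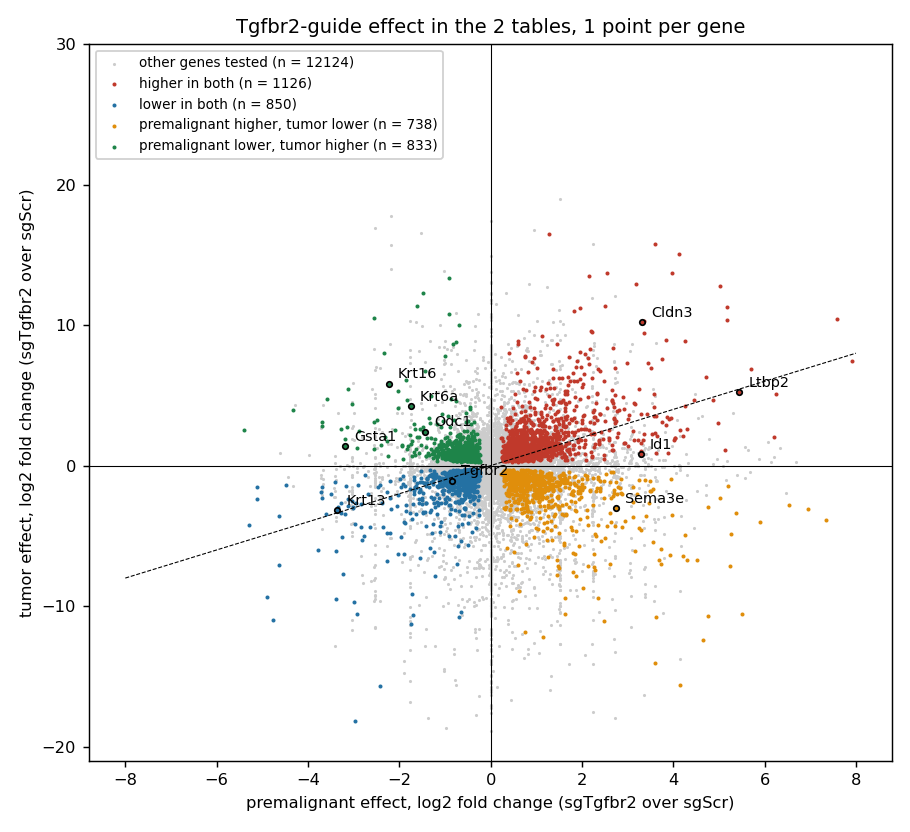
Log2 fold change of sgTgfbr2 over sgScr in the premalignant (x) and tumor (y) table for each of 15671 genes, coloured by class, with a dashed line of equal effects. The 4 classes fill all 4 quadrants with 738 to 1126 genes each, and Tgfbr2 lies near the line of equal effects.

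The promoters of genes that moved alike were read for letters bound by transcription factors that act downstream of TGF-beta and of growth factor signals. RefSeq (GRCm38.p6) gave promoters of 250 bases before to 50 after a start site for 12307 of the 15671 genes, 15550 promoters in all. Both strands were searched for GTCTAGAC (a Smad3 and Smad4 palindrome), TGACTCA (AP-1) and CACGTG (the E-box bound by MYC). The 2 promoters below belong to genes higher in both tables and hold the Smad palindrome and AP-1 letters, in capitals. They are Smad6, at chr9:64022010-64022309, and Cldn4, at chr5:134946885-134947184, both on the minus strand.
Smad6: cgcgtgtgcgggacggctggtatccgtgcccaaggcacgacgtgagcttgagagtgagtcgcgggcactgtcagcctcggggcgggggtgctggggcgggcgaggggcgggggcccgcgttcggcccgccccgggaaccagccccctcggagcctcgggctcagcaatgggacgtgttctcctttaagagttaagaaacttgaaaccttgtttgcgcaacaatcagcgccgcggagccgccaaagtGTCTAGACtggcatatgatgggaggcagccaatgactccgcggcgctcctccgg
Cldn4: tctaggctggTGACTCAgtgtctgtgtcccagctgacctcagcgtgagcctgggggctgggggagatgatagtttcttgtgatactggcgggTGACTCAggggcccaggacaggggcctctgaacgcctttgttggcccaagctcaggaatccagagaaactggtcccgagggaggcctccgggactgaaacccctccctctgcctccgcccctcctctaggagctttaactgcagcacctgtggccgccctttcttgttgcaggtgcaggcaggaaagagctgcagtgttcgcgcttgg
In these sequences no searched motif overlaps another. The palindrome was in 0.254% of promoters of genes higher in both tables and in 0.264% of all promoters, and AP-1 letters were in 4.82% against 4.32%. Among genes lower in the premalignant and higher in the tumor table, AP-1 letters were in 3.11% and the E-box in 10.0%, against 9.32% of all promoters for the E-box. These shares lie near those of all genes, and a match is a description of the letters only.

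Among the genes higher in both tables with a mean of at least 5 CPM in each and groups apart, Ltbp2 had the largest change by the smaller of its effects. It encodes a secreted matrix protein related to those that hold TGF-beta in its latent form and lies on chromosome 12 at 84783212 to 84876558. It stood at 0.649, 0.572 and 0.696 in premalignant sgScr and at 41, 38.4, 18.9 and 14.2 in premalignant sgTgfbr2. In the tumor libraries it stood at 1.30, 1.18 and 0.657 in sgScr and at 41.7 and 38.0 in sgTgfbr2. Control levels and guide levels were thus similar in both tables, and the effects of 5.45 ± 0.42 and 5.22 ± 0.43 had a stage contrast of -0.22 ± 0.62 (adjusted p = 0.811). Acss1, a mitochondrial acetyl-CoA synthetase, rose by 3.59 ± 0.55 and 4.15 ± 0.55 (stage contrast adjusted p = 0.594), but with line 2 alone the premalignant rise was 2.26 and the stage contrast 1.89 (adjusted p = 0.000562). Cldn3, Slc39a4 and Tspan1 rose more in the tumor table. Cldn3, a tight junction claudin, was at 16.1, 14.6 and 23.1 against 217, 241, 133 and 121 in the premalignant libraries, and at 0.195, 0.473 and 0.584 against 566 and 437 in the tumor libraries. Its stage contrast was 6.91 ± 0.49 (adjusted p = 2.42e-08), and most of that gap lay in the control groups, which stood far lower in the tumor table. Slc39a4, a zinc importer, followed the same pattern, with control levels of 9.94 to 12.3 and 0.292 to 0.414 and guide levels of 129 to 164 and 61.9 to 82.0 (stage contrast 3.83 ± 0.29). The tetraspanin Tspan1 did too, with a stage contrast of 3.46 ± 0.58 (adjusted p = 0.000145). Vnn1, a pantetheinase, had 3 counts in tumor sgScr and 1244 in tumor sgTgfbr2, a ratio of 535-fold with a counting interval of 183 to 2596, and rose by 3.83 ± 0.44 in the premalignant table.

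For part of these genes the likeness depended on the premalignant line. Spp1, the secreted phosphoprotein osteopontin, was at 956 and 889.5 in line 1 and 59.5 and 58.0 in line 2, against 24.1 to 26.6 in sgScr. Its tumor levels were 5.65, 8.33 and 8.33 in sgScr and 142 and 138 in sgTgfbr2. The pooled stage contrast of -0.03 ± 1.20 hid -0.94 with line 1 alone (adjusted p = 0.000292) and 3.03 with line 2 alone (adjusted p = 2.03e-10). Sprr2d, a cornified envelope gene of a multigene family whose counts are uncertain, had premalignant effects of 5.32 in line 1 and 1.93 in line 2 against 4.64 in the tumor table. Ltbp2 did not differ from the tumor effect with either line alone (line 1 -0.72, adjusted p = 0.104, and line 2 0.53, adjusted p = 0.29). Over all genes, line 1 alone gave 1978 alike genes, 1531 of them among the 1976, and line 2 alone 2192, with 1678 of the 1976. The premalignant calls of Krt18, Lamb3, Asprv1 and Mylpf did not pass with line 1 alone, and those of Gata4, Krt20, Mx1, Relb and Cdt1 did not pass with line 2 alone. Of the 1571 opposite genes 1164 were called opposite with line 1 alone and 1337 with line 2 alone.

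Among the genes lower in both tables, under the same limits, Krt13 led by the smaller of its effects. It encodes a keratin of suprabasal esophageal cells. Its level was 137, 132 and 109 in premalignant sgScr and 5.71, 4.80, 17.4 and 21.2 in premalignant sgTgfbr2, against 70556, 71569.5 and 67163 in tumor sgScr and 8099 and 7605 in tumor sgTgfbr2. The groups did not overlap in either table, as these limits required, and the control level was far higher in the tumor libraries. The effects were nonetheless close, at -3.36 ± 0.36 and -3.15 ± 0.46 (stage contrast 0.21 ± 0.53, adjusted p = 0.788). With line 1 alone the tumor fall was the smaller by 1.43 (adjusted p = 2.73e-06). Teddm3 fell by 2.21 ± 0.13 and 2.30 ± 0.15 on the log2 scale, with 18.1 to 26.0 against 4.43 to 5.38 in the premalignant and 828 to 932 against 173 to 183 in the tumor libraries. Its stage contrast of -0.09 ± 0.19 (adjusted p = 0.739) was near 0 with each line alone. Atf5, a transcription factor of the stress response, fell by 1.66 ± 0.18 and 1.58 ± 0.22, and Mreg, a regulator of organelle trafficking, by 1.47 ± 0.14 and 1.97 ± 0.18. The stage contrast of Mreg passed with line 2 alone (-0.65, adjusted p = 0.0121). The T-box factor Tbx2 fell by 2.42 ± 0.38 and 1.41 ± 0.45 (stage contrast adjusted p = 0.154), but with line 1 alone the stage contrast was 2.42 (adjusted p = 6.71e-08). The homeobox factor Barx2 and the heme oxygenase Hmox1 fell in both tables and by more in the tumor table (stage contrasts -1.24 ± 0.19 and -1.98 ± 0.20). Hmox1 was at 71.7 to 104 against 31.1 to 36.3 in the premalignant and at 201 to 204 against 20.1 to 20.5 in the tumor libraries. The squamous marker sum, of which Krt13 is itself a member, was lower beside these genes in both tables (above). Its 10 markers did not move as one: 6 fell and 4 rose in the tumor table, and 5 fell and 1 rose in the premalignant one. The part of squamous content in the fall of these genes was not tested.

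**Figure D3:**
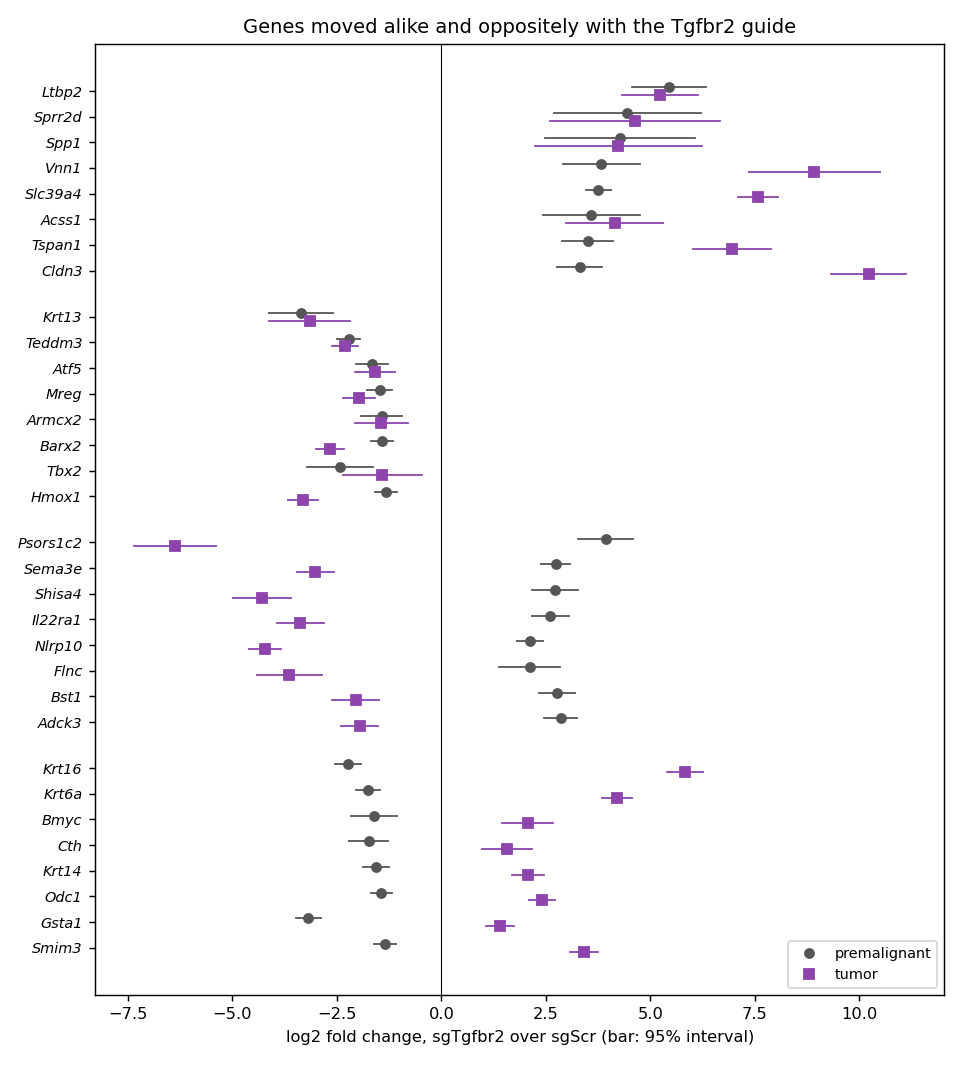
Log2 fold change of sgTgfbr2 over sgScr in the premalignant (circles) and tumor (squares) table with 95% intervals, for the 8 leading genes of each class. From the top the blocks are higher in both, lower in both, premalignant higher with tumor lower, and premalignant lower with tumor higher; the tumor value of Vnn1 rests on 3 control counts.

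Of 19 ligand and latent-form genes 5 rose in both tables (7.19% of all genes did) and none moved oppositely (10.0% of all genes), with median log2 effects of 0.51 in the premalignant and 1.69 in the tumor table, against 0.00 and -0.02 over all genes. Tgfb1, the ligand, was at 102, 114 and 123 in premalignant sgScr and 175 to 200.3 in premalignant sgTgfbr2, and at 16.7 to 19.6 against 99.2 and 85.4 in the tumor libraries. It rose in both and by more in the tumor table (0.70 ± 0.10 and 2.34 ± 0.12, stage contrast 1.65 ± 0.16, adjusted p = 6.94e-07). Thrombospondin 1 (Thbs1) and the integrin subunit Itgb6, which can release the active ligand from its latent complex, rose by 1.29 ± 0.26 and 0.96 ± 0.14 in the premalignant and by 2.72 ± 0.28 and 2.07 ± 0.17 in the tumor table. Ltbp3, another latent-form binding protein, rose too (0.74 ± 0.13 and 1.80 ± 0.15). The activin subunit gene Inhbb rose in the tumor table alone by the calls (3.22 ± 0.38, premalignant 0.51 ± 0.35), and its effects differed (stage contrast 2.71 ± 0.51, adjusted p = 0.000394).

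Of 21 receptor, Smad and regulator genes 6 rose in both tables (7.19% of all genes did) and 1, Tgfbr2, fell in both (5.42%). Another 2 moved oppositely, a share near that of all genes (10.0%). Tgfbr1, the partner receptor, was at 28.9, 28.5 and 32.6 against 64.9, 67.4, 60.8 and 56.3 in the premalignant and at 29.3, 31.7 and 34.1 against 68.3 and 81.7 in the tumor libraries. Control and guide levels were close between the tables, and the effects of 1.06 ± 0.11 and 1.24 ± 0.13 had a stage contrast of 0.19 ± 0.17 (95% interval -0.17 to 0.55, adjusted p = 0.388). Skil rose by 0.82 ± 0.14 and 0.86 ± 0.16 (stage contrast 0.04 ± 0.21, adjusted p = 0.919). Smad6, whose promoter is printed above, rose by 0.91 ± 0.18 and 1.82 ± 0.22, with levels of 12 to 15.7 against 20.8 to 30.2 in the premalignant and of 3.96 to 6.23 against 19.1 and 18.1 in the tumor libraries. Tgif1, a Smad corepressor, rose by 0.45 ± 0.10 and 1.99 ± 0.12. Tgfbr3, the betaglycan coreceptor, moved oppositely: it was at 5.37 to 6.03 against 16.4 to 20.3 in the premalignant and at 58.4, 65.2 and 71.6 against 37.1 in both guide libraries of the tumor table (1.72 ± 0.13 and -0.81 ± 0.14, stage contrast -2.53 ± 0.19, adjusted p = 4.22e-08). The second opposite gene, the type I receptor gene Acvr1c, had at most 1.39 CPM in any library. Bambi, a decoy receptor, rose in the tumor table (2.83 ± 0.30) with 0.08 ± 0.26 in the premalignant table, a stage contrast of 2.75 ± 0.39 (adjusted p = 3.61e-05).

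Of 29 TGF-beta target genes 9 rose in both tables (7.19% of all genes), none fell in both (5.42%) and 1 moved oppositely (10.0%). The medians were 0.38 and 1.07, and 0.45 in the premalignant table with the 4 genes of 3 or fewer counts in a guide group held at the fold that 3 counts allow. Ctgf, a matricellular growth factor that YAP and TAZ also induce, was at 4.11, 4.66 and 7.47 against 25.5, 34.7, 29.7 and 25.6 in the premalignant and at 65.1, 71.6 and 72.9 against 381 and 365 in the tumor libraries. No groups overlapped, and the effects of 2.41 ± 0.18 and 2.42 ± 0.18 were alike (stage contrast 0.01 ± 0.30, adjusted p = 1) although the control levels of both tables lay far apart. The cell cycle inhibitor Cdkn2b rose by 0.93 ± 0.16 and 2.93 ± 0.20. Ahnak, a large scaffold protein gene, was the opposite one (0.70 ± 0.16 and -1.66 ± 0.20). The smooth muscle marker sum was 163 to 214 in premalignant sgScr and 175 to 287 in premalignant sgTgfbr2, which overlap. It was 499 to 562 in tumor sgScr and 1555 to 1772 in tumor sgTgfbr2, so it moved with Ctgf in the tumor table only. The premalignant sum came mostly from Smtn (3251 to 4576 counts in sgScr and 3470 to 6763 in sgTgfbr2), which had 683 to 947 counts against 1076 and 903 in the tumor libraries. The part of smooth muscle in these results was not tested.

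The Id genes, targets of BMP signalling that encode inhibitors of basic helix-loop-helix factors, rose in both tables in 3 of the 4 members measured. Id1 was at 22.6, 23 and 18.3 against 213, 202, 191 and 224 in the premalignant and at 71.2, 69.4 and 62.8 against 135 and 104 in the tumor libraries. The premalignant rise was the larger, at 3.28 ± 0.13 against 0.82 ± 0.13 (stage contrast -2.47 ± 0.18, adjusted p = 4.3e-08). Id2 went the other way in size (1.59 ± 0.12 and 3.19 ± 0.14, stage contrast 1.60 ± 0.18), and Id3 rose by 2.09 ± 0.18 and 2.6 ± 0.20 with a stage contrast that passed with line 1 alone (0.86, adjusted p = 0.000749) but not with both lines (adjusted p = 0.114). Of the 23 genes of the BMP and Id list 4 rose in both tables (7.19% of all genes) and none fell in both (5.42%). Another 2 moved oppositely, near the share of all genes (10.0%). Bmp4, a BMP ligand, was one of these 2 (2.00 ± 0.33 and -0.96 ± 0.28), from a premalignant control level of 0.325 to 0.379.

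**Figure D4:**
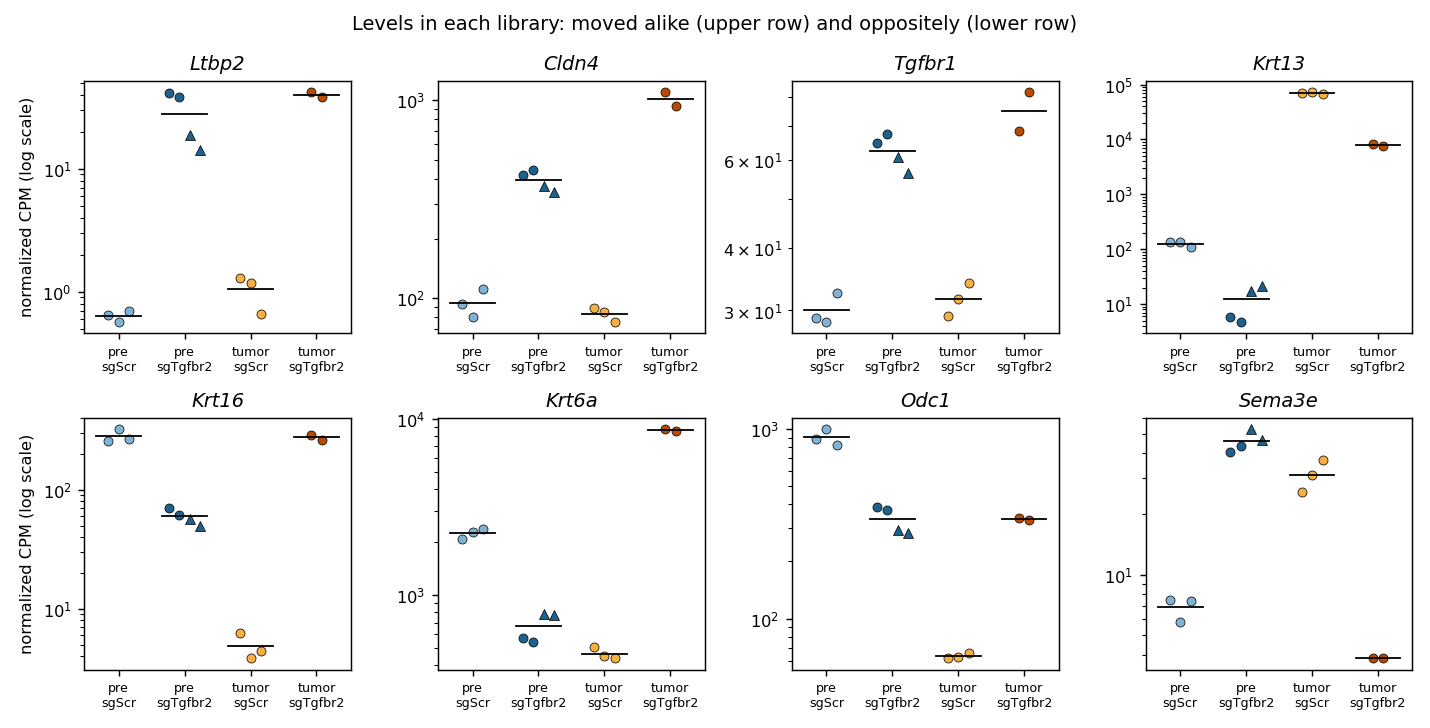
Normalized CPM (log axis) in each library by group, with the group mean as a bar and triangles for premalignant line 2, for 4 genes that moved alike (upper row) and 4 that moved oppositely (lower row). Ltbp2 and Tgfbr1 have like levels in both tables, Krt13 keeps its effect at a far higher control level, and Krt16, Krt6a, Odc1 and Sema3e turn direction.

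Of 25 epithelial junction genes 12 rose in both tables (7.19% of all genes), 2 fell in both (5.42%) and 1 moved oppositely (10.0%). The medians were 0.51 and 1.02. Cldn4, a claudin whose promoter is printed above, was at 93.4, 80.4 and 112 against 418, 446, 367 and 345 in the premalignant and at 89.0, 85.5 and 76.3 against 1091 and 932 in the tumor libraries, so the control levels were close and the tumor rise was the larger (2.05 ± 0.13 and 3.60 ± 0.15, stage contrast 1.55 ± 0.19, adjusted p = 9.43e-06). Occludin (Ocln) rose by 1.38 ± 0.16 and 1.46 ± 0.18 (stage contrast 0.08 ± 0.24, adjusted p = 0.83). Tjp3, a scaffold protein of tight junctions, rose more in the premalignant table (2.68 ± 0.17 and 1.12 ± 0.18). Cldn7 rose by 1.12 ± 0.14 and 9.23 ± 0.27, and Cldn8 was the opposite one (-1.22 ± 0.18 and 1.91 ± 0.21).

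Of 30 NF-kB and inflammatory genes 12 rose in both tables (7.19% of all genes). None fell in both (5.42%) or moved oppositely (10.0%), and the medians were 1.24 and 1.28. Il1b, the cytokine interleukin 1 beta, was low in the premalignant table, at 0.216, 0 and 0 against 0.336 to 0.917, and in the tumor table at 1.75 to 3.31 against 30.6 and 30.3. The neutrophil chemokine Cxcl5 was at 93.9 to 117 in premalignant sgScr, at 1343 and 1353 in line 1 and at 361 and 317 in line 2, and in the tumor table at 0.195, 0.414 and 2.26 against 148 and 137 (3.0 ± 0.49 and 7.29 ± 0.74). The pathway's own transcription factor genes differed between the tables: Nfkb2, Rela and Nfkb1 rose in the tumor table (1.92 ± 0.13, 1.32 ± 0.13 and 1.59 ± 0.14), with 0.26 ± 0.11, -0.29 ± 0.11 and 0.08 ± 0.12 in the premalignant table, and Relb rose in both (0.46 ± 0.15 and 2.52 ± 0.19). The immune marker sum was 14.3 to 25.5 against 31.2 to 55.2 in the premalignant libraries and 1346 to 1446 against 1031 to 1174 in the tumor ones. The premalignant sum came mostly from Cd68 (289 to 506 counts in sgScr and 536 to 1138 in sgTgfbr2) and Cd74 (14 to 38 and 67 to 137). Of the other markers Lyz2, Tyrobp, Adgre1, Cd3e and C1qb had no count in the premalignant libraries. The part of immune cells in these results was not tested.

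Of 25 MAPK feedback and immediate early genes 11 rose in both tables (7.19% of all genes) and none fell in both (5.42%). Another 3 moved oppositely, near the share of all genes (10.0%), and the medians were 0.59 and 0.90. The immediate early gene Egr1 was at 208 to 238 against 589.6 to 743 in the premalignant and at 31.3 to 34.7 against 141 and 146 in the tumor libraries (1.52 ± 0.10 and 2.13 ± 0.12). Dusp4, a MAPK phosphatase, rose by 1.62 ± 0.17 and 5.30 ± 0.29, and the AP-1 genes Fosb and Fos by 0.97 ± 0.17 and 0.93 ± 0.13 against 3.78 ± 0.24 and 2.92 ± 0.16. Egr3, of the same family as Egr1, moved oppositely, with 0.379 to 0.650 against 4.56 to 5.94 in the premalignant and 9.86 to 11.3 against 1.13 and 2.17 in the tumor libraries (3.47 ± 0.31 and -2.67 ± 0.33, stage contrast -6.15 ± 0.46). Etv4, an ETS factor, rose in the tumor table (3.16 ± 0.14) with -0.03 ± 0.09 in the premalignant table.

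The columnar and simple epithelial genes rose in the tumor table in 20 of 20 members tested (29.1% of all genes did). Of these, 8 rose in both tables (7.19% of all genes), and 1, Krt20, was opposite, with a premalignant fall that passed the threshold in line 1 but not in line 2 (-0.36, adjusted p = 0.134). The premalignant median was 0.42 and the tumor median 7.73, or 7.37 with the 4 genes of 3 or fewer tumor counts in a guide group held at that bound. Hnf4a, Cldn18, Muc5ac and Muc6 had 309 to 6472 counts in the tumor sgTgfbr2 libraries and at most 7 in any other library. They passed the count filter only through the group where they are high, which fixed their tumor rise. The tumor count and median of the list include them and are no separate support. Krt7, a simple epithelial keratin, was at 68.7 to 92.6 in premalignant sgScr, at 759 and 747 in line 1 and 181 and 189 in line 2, and at 0.519 to 1.83 against 2721 and 2279 in the tumor libraries (2.51 ± 0.45 and 11.33 ± 0.75, stage contrast 8.82 ± 0.81). Muc1, a transmembrane mucin, rose by 3.44 ± 0.63 and 7.29 ± 0.52, and the epithelial ETS factor Elf3 by 1.83 ± 0.16 and 3.96 ± 0.19. The endodermal factor Gata4 rose in the tumor table by 7.46 ± 0.92, and its premalignant rise (1.90 ± 0.65) was in line 1 alone (2.74), with -0.32 in line 2 (adjusted p = 0.464). Krt18 and Krt19 rose by 0.40 ± 0.13 and 0.61 ± 0.15 in the premalignant and by 8.0 ± 0.21 and 8.68 ± 0.24 in the tumor table. The gastric gland markers given above are high in the same tumor libraries, and their part in these genes was not tested. In the premalignant libraries those markers summed to at most 2.71, and their part was not tested there either.

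Of 25 cholesterol synthesis genes 10 fell in both tables (5.42% of all genes did), none rose in both (7.19%) and 2 moved oppositely (10.0%). The medians were -0.35 and -0.47. The stage contrast was higher in 7 of the 25 and lower in 9. Idi1, an isomerase of the isoprenoid pathway, was at 379.8, 401 and 302 against 145 to 167 in the premalignant and at 213, 271 and 281 against 128 and 146 in the tumor libraries (-1.22 ± 0.12 and -0.89 ± 0.15, stage contrast adjusted p = 0.17). Fdps, the farnesyl diphosphate synthase, fell by 0.80 ± 0.11 and 1.13 ± 0.14 (stage contrast adjusted p = 0.131, and 0.0284 without tumor sgTgfbr2 replicate 1). Tm7sf2, a sterol reductase, fell by 0.92 ± 0.14 and 2.35 ± 0.18. Dhcr7, which makes cholesterol in the last step, was among the opposite genes (-0.50 ± 0.09 and 1.10 ± 0.11). The integrated stress response list was divided: of 26 genes 6 fell in both (5.42% of all genes) and 1 rose in both (7.19%). Another 5 fell in the premalignant and rose in the tumor table (5.32%). Trib3 and Phgdh, a pseudokinase and the first enzyme of serine synthesis, fell in both (-1.0 ± 0.17 and -1.41 ± 0.24, and -0.86 ± 0.12 and -1.67 ± 0.16). The master factor Atf4 and the folate enzyme gene Mthfd2 moved oppositely (-0.84 ± 0.11 and 0.62 ± 0.13, and -1.09 ± 0.14 and 0.90 ± 0.18).

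The stress and wound keratins were the clearest group among the opposite genes. Krt6a, Krt6b, Krt16 and Krt17, which squamous epithelium makes when it is injured or hyperproliferative, all 4 fell in the premalignant and rose in the tumor table. Of all genes 5.32% did so. The medians were -1.84 and 5.02, and 7.02 for the stage contrast. Krt16, on chromosome 11 at 100246091 to 100248902, was at 254, 322 and 265 against 70.6, 61.4, 57.0 and 49.5 in the premalignant and at 6.23, 3.84 and 4.46 against 290.4 and 263 in the tumor libraries. The tumor guide level thus lay where the premalignant control level did. The effects were -2.23 ± 0.14 and 5.84 ± 0.20, with a stage contrast of 8.07 ± 0.24 (adjusted p = 2.58e-12). Krt6a was at 2089.6, 2286 and 2366 against 574, 540.0, 782 and 771 in the premalignant and at 511, 449 and 439 against 8749 and 8548 in the tumor libraries (stage contrast 5.97 ± 0.21). Krt17 was at 3575 to 3909 against 1919 to 2303 in the premalignant and at 2.26 to 4.35 against 1578 and 1260.3 in the tumor libraries. Krt6b, which is nearly identical in sequence to Krt6a so that its counts are uncertain, rose in the tumor table by 0.48 ± 0.19 (adjusted p = 0.0446) only. Krt14, the keratin of basal cells, moved with them (-1.57 ± 0.15 and 2.07 ± 0.18, stage contrast 3.64 ± 0.23). Its level was 2443 to 2822 against 675 to 1051 in the premalignant and 1223 to 1454 against 6200.5 and 5289 in the tumor libraries.

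Other basal genes did not share one direction. Of the 20 genes of the basal list 6 moved oppositely (10.0% of all genes), 3 in each direction, 2 rose in both (7.19%) and 1 fell in both (5.42%). Krt15, another basal keratin, fell in both (-1.10 ± 0.26 and -2.67 ± 0.35), and the nerve growth factor receptor gene Ngfr and the laminin chain gene Lamb3 rose in both (1.02 ± 0.18 and 0.83 ± 0.26, and 0.66 ± 0.18 and 0.76 ± 0.22). The integrin genes Itga3 and Itgb1 rose in the tumor table (2.44 ± 0.15 and 1.04 ± 0.11) with 0.30 ± 0.12 and -0.23 ± 0.09 in the premalignant table. Differentiation genes fell in 27 of 32 members in the tumor table, where 29.8% of all genes did, and in 6 of 32 in the premalignant one, near the 18.1% of all genes (medians -4.97 and 0.01). Of the 32, 5 fell in both (5.42% of all genes), 2 rose in both (7.19%) and 5 moved oppositely (10.0%). Lce3b, Lce3e, Lce3f, Dsg1a and Krt1 had 115 to 48480 counts in the tumor sgScr libraries and at most 6 in any other library. They passed the count filter only through the group where they are high, which fixed their tumor fall, and their premalignant effects rest on few counts. The tumor count and median of the list include them and are no separate support. Loricrin (Lor) and Krtdap, genes of the cornifying layers, had premalignant effects of 0.01 ± 0.22 and 0.00 ± 0.21 and tumor effects of -11.63 ± 0.34 and -8.32 ± 0.31. Corneodesmosin (Cdsn) was opposite (1.51 ± 0.27 and -7.26 ± 0.34). Lce3a, a late cornified envelope gene of a multigene family, had 21 counts against 3 in the premalignant libraries, a ratio of 9.03-fold with a counting interval of 3.09 to 43.8, and 89212 counts against 0 in the tumor libraries, at least 23032-fold lower with the guide by a floor of 3 counts over the group.

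Part of the ribosome biogenesis and proliferation genes made up a second opposite group. Of 28 MYC target and ribosome biogenesis genes 25 fell in the premalignant table (18.1% of all genes did), and 12 rose and 4 fell in the tumor table (29.1% and 29.8% of all genes). Of the list 11 fell in the premalignant and rose in the tumor table (5.32% of all genes) and 3 fell in both (5.42%). The medians were -0.84 and 0.23. The stage contrast was higher in 24 and lower in 1. Odc1, the rate-limiting enzyme of polyamine synthesis, was at 889.5, 999 and 828 against 387, 373, 293 and 282 in the premalignant and at 61.7, 62.5 and 65.7 against 339 and 332 in the tumor libraries (-1.44 ± 0.12 and 2.41 ± 0.14, stage contrast 3.84 ± 0.19, adjusted p = 3.41e-10). Srm, the spermidine synthase of the same pathway, and Fbl, the fibrillarin of small nucleolar particles, followed (-1.23 ± 0.12 and 0.67 ± 0.14, and -1.06 ± 0.13 and 0.96 ± 0.16). Nolc1, a nucleolar chaperone, fell by 1.06 ± 0.10 in the premalignant table with 0.21 ± 0.13 in the tumor table, and Rrp12, a ribosome assembly factor, fell in both (-1.21 ± 0.16 and -0.61 ± 0.19). Myc itself, as given above, had no such turn. Bmyc, a related gene without the DNA-binding domain of Myc, was among the leading opposite genes (-1.61 ± 0.25 and 2.06 ± 0.29).

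Of 35 proliferation genes 14 fell in the premalignant and rose in the tumor table (5.32% of all genes), 3 did the reverse (4.71%) and 1 rose in both (7.19%). The medians were -0.34 and 0.53. Mcm4, a subunit of the replicative helicase, was at 167, 176 and 140.5 against 87.6 to 99.7 in the premalignant and at 19.7, 23.3 and 23.4 against 77.1 and 76.3 in the tumor libraries (-0.76 ± 0.10 and 1.79 ± 0.13, stage contrast 2.55 ± 0.16, adjusted p = 6.62e-09). The replication licensing factor Cdt1 and cyclin E1 (Ccne1) did the same (-0.42 ± 0.12 and 2.29 ± 0.16, and -0.91 ± 0.13 and 1.73 ± 0.17). Cenpf, a kinetochore protein of mitosis, was among the 3 of the reverse kind, at 67.4 to 71.9 against 115 to 150.1 and at 34.9 to 37.2 against 12.8 and 13.7 (0.94 ± 0.11 and -1.43 ± 0.14). The other 2 were Mki67 and Cenpe.

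YAP and TAZ target genes divided in the opposite sense. Of 22 members 16 rose in the premalignant table, where 18.4% of all genes did. Of the 22, 5 rose in both tables (7.19% of all genes) and 8 rose in the premalignant and fell in the tumor table (4.71%). The medians were 0.71 and -0.10. F3, tissue factor, was at 51.2 to 58.9 against 87.0 to 123 in the premalignant and at 226, 249.6 and 256 against 58.4 and 58.0 in the tumor libraries (0.93 ± 0.12 and -2.07 ± 0.16, stage contrast -3.00 ± 0.20, adjusted p = 1.13e-08). The angiomotin family gene Amotl2 and the receptor tyrosine kinase gene Axl did likewise (0.70 ± 0.14 and -2.10 ± 0.18, and 1.11 ± 0.14 and -1.37 ± 0.17). Ctgf and Cyr61, matricellular proteins most often read as YAP targets, rose in both; Cyr61 was at 104 to 140.0 against 281 to 354 and at 12.5 to 19.5 against 48.3 and 42.0 (1.42 ± 0.15 and 1.59 ± 0.18, stage contrast adjusted p = 0.588). The fibroblast marker sum was lower with the guide in the tumor table and near 0 in the premalignant one, and moves with the tumor fall of the opposite members. Its 9 markers did not move as one: 5 fell and 1 rose in the tumor table (29.8% and 29.1% of all genes). The part of fibroblasts was not tested.

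**Figure D5:**
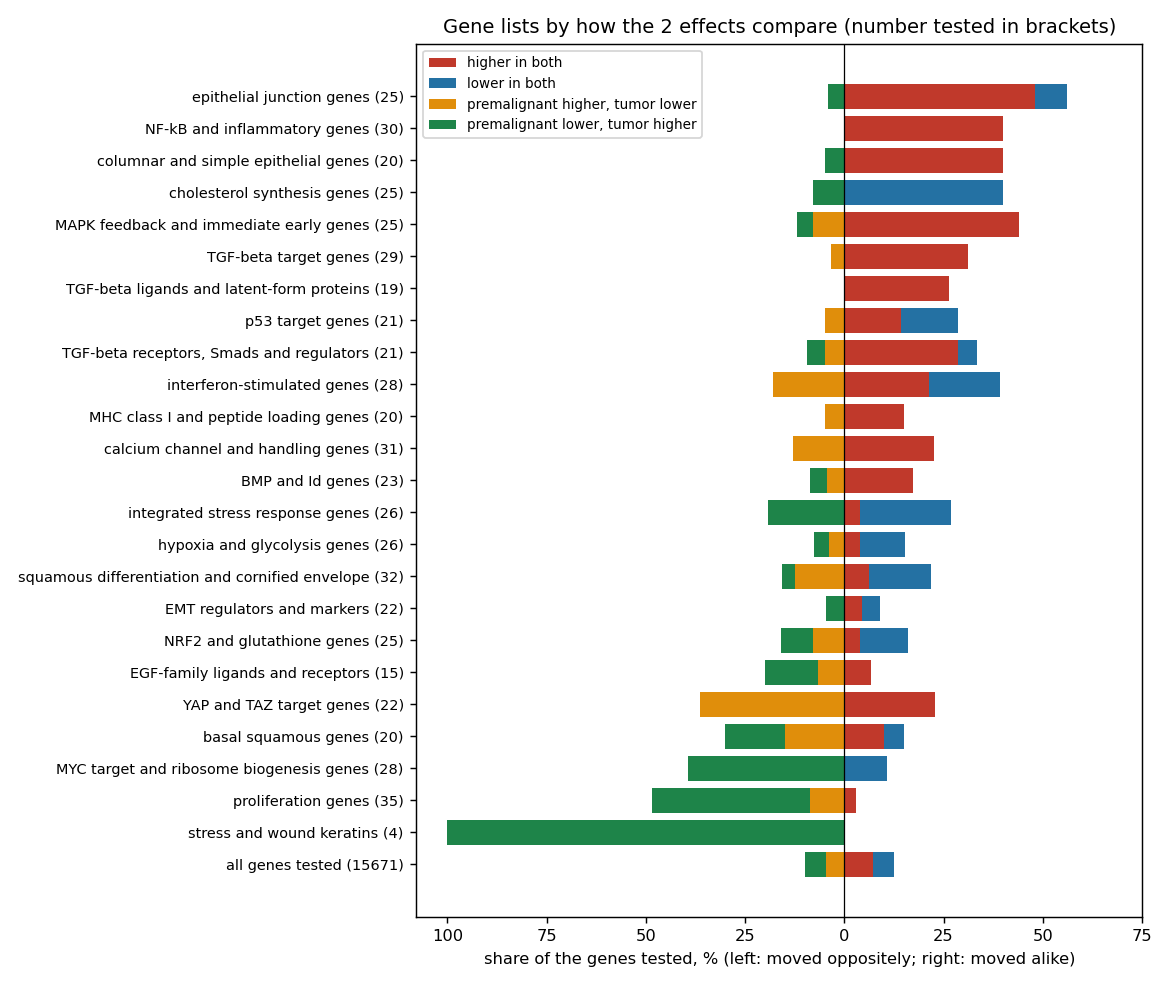
Share of the tested members of each gene list that moved alike (right: red higher, blue lower in both tables) and oppositely (left: orange premalignant higher and tumor lower, green premalignant lower and tumor higher), with all 15671 genes at the bottom. Junction, NF-kB, columnar and cholesterol genes lie to the right of the bottom bar, and stress keratins, proliferation and MYC target genes reach farther left.

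The leading genes higher in the premalignant and lower in the tumor table included Sema3e, a secreted semaphorin that binds plexin D1. It was at 7.46, 5.81 and 7.38 against 40.4, 43.5, 52.7 and 46.6 in the premalignant and at 25.6, 31.1 and 36.9 against 3.85 and 3.84 in the tumor libraries. The groups did not overlap in either table, as the choice of these genes required (2.74 ± 0.16 and -3.02 ± 0.21, stage contrast -5.75 ± 0.27, adjusted p = 2.43e-10). Il22ra1, a subunit of the interleukin 22 receptor, moved by 2.61 ± 0.21 and -3.37 ± 0.26, and Nlrp10, an NLR family protein gene, by 2.12 ± 0.14 and -4.22 ± 0.18. Bst1, an ectoenzyme that makes cyclic ADP-ribose, and Adck3, a kinase-like protein of coenzyme Q synthesis, moved by 2.77 ± 0.20 and -2.04 ± 0.26 and by 2.86 ± 0.19 and -1.96 ± 0.21. Psors1c2 was at 0.616 to 0.920 against 7.70 to 16.3 and at 18.6 to 19.9 against 0.340 and 0.111, and Shisa4 moved by 2.72 ± 0.26 and -4.29 ± 0.33. Flnc, the filamin of muscle, moved by 2.12 ± 0.34 and -3.63 ± 0.36, and the skeletal muscle marker sum was lower beside it in the tumor table. In the premalignant libraries that sum was at most 14.4 in either guide group, and the part of muscle content in the Flnc values was not tested.

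The leading genes of the reverse kind, beside keratins, Odc1 and Bmyc, were Gsta1, Cth and Smim3. Gsta1, a glutathione transferase with near-identical copies whose counts are uncertain, was at 171, 175 and 163 against 13.8 to 21.6 in the premalignant and at 141, 185 and 164 against 469 and 395 in the tumor libraries. Its control levels were alike in both tables (-3.18 ± 0.14 and 1.40 ± 0.16, stage contrast 4.59 ± 0.21, adjusted p = 2.43e-10). Cth, which makes cysteine from cystathionine, moved by -1.74 ± 0.22 and 1.57 ± 0.29, and Smim3, which encodes a small membrane protein, by -1.36 ± 0.12 and 3.41 ± 0.16. Each of the 16 leading opposite genes kept both signs and passed the stage contrast with line 1 alone and with line 2 alone. They were chosen for groups apart in both tables and for large effects, which largely fixed this outcome, so it is no separate support.

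Of 15 EGF-family ligand and receptor genes 3 moved oppositely (10.0% of all genes) and 1 rose in both (7.19%). The stage contrast was higher in 5 and lower in 7. The ligand genes Epgn and Areg fell in the premalignant and rose in the tumor table (-3.15 ± 0.30 and 2.77 ± 0.45, and -0.88 ± 0.24 and 2.74 ± 0.32), and 1 gene did the reverse. Hbegf, which binds the same receptor, rose in both (0.56 ± 0.11 and 1.91 ± 0.13). Of 31 calcium channel and handling genes 7 rose in both tables (7.19% of all genes) and none fell in both (5.42%). Another 4 rose in the premalignant and fell in the tumor table (4.71%). Cacnb1, the channel subunit typical of skeletal muscle, was at 0.528 to 0.974 against 1.97 to 5.38 in the premalignant and at 48.1 to 56.6 against 2.15 and 1.06 in the tumor libraries, in step with the muscle marker sum of the tumor table. Cacnb3, another channel subunit, and Itpr3, a calcium release channel, rose in both (1.09 ± 0.19 and 2.55 ± 0.23, and 0.58 ± 0.15 and 2.16 ± 0.18). Of 28 interferon-stimulated genes 6 rose in both (7.19% of all genes), 5 fell in both (5.42%) and 5 rose in the premalignant and fell in the tumor table (4.71%). This list thus had no common direction. Oas1a, an antiviral synthetase, fell in both (-1.90 ± 0.21 and -4.04 ± 0.22), Mx1, an antiviral GTPase, rose in both (1.72 ± 0.49 and 4.50 ± 0.41), and the RNA sensor Ifih1 was opposite (0.69 ± 0.17 and -1.42 ± 0.20).

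The genes at the ends of the stage contrast all had a large tumor effect. Mylpf, a myosin light chain of fast skeletal muscle and itself a member of the muscle list, was lowest at -12.58 ± 0.49, with 2807 to 3406 against 1.13 and 0.557 in the tumor and 3.48 to 8.70 in the premalignant libraries. Ada, adenosine deaminase, and Asprv1, a protease of the cornifying epidermis, followed at -10.05 ± 0.24 and -9.54 ± 0.36. Ada was at 9729.7 to 10671 in tumor sgScr, 6.91 and 5.06 in tumor sgTgfbr2 and 17.0 to 31.2 in the premalignant libraries. Rps6ka6, a ribosomal S6 kinase, had 2115 counts in tumor sgScr and 1 in tumor sgTgfbr2, a ratio of 1638-fold with a counting interval of 294 to 64701. At the upper end, the chemokine precursor Ppbp had a stage contrast of 11.41 ± 0.61, with premalignant effects of -0.83 in line 1 and 0.69 in line 2, and lactoferrin (Ltf) 11.14 ± 0.46. Ltf rose in both tables, with 23.1 to 29.9 against 109 to 209.8 in the premalignant and 0.195 to 0.804 against 7953 and 7759 in the tumor libraries. Krt20, a keratin of gastrointestinal surface cells, was at 8.98 to 11.2 against 2.61 to 8.12 and at 0, 0.236 and 0 against 159 and 165. The calcitonin-related peptide gene Calcb had 2 counts in tumor sgScr and 19052 in tumor sgTgfbr2 (12299-fold, counting interval 3405 to 101560). Skint3 had no count in tumor sgScr and 1564 in tumor sgTgfbr2, at least 673-fold higher by a floor of 3 counts over the group.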

How the data were processed

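RNA was extracted with Trizol, and reads were aligned with STAR 2.6.0a to mm10 and compared with DESeq2 1.26.0, per the submitters' processing notes; the sources used here give no counting program, annotation or strand setting. The authors deposited raw counts per gene symbol, with their own log2 fold changes and adjusted p-values, in 1 table per stage. The tables were joined by symbol, and 27 symbols turned into dates were left out. Here the 12 libraries were fitted together with edgeR 4.0.16 (R 4.3.3): genes with low counts were filtered (minimum count 10), libraries TMM-scaled, and 4 guide and stage groups tested with the quasi-likelihood test (residual df 8) and Benjamini-Hochberg adjustment at 0.05 over all 15671 genes, so every adjusted p here is from that test unless the authors' deposited table is named. The 4 premalignant sgTgfbr2 libraries formed 1 group. SEs are the absolute log2 fold change divided by the square root of F. A floor of 3 counts equalled 0.138 to 0.195 CPM in a library, and intervals on counts (95%) cover counting error only.

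The members and gene lists were chosen with earlier results of these data known. Named genes were 5 fixed ones, the 8 of each class with the largest smaller absolute effect among those with a mean of at least 5 CPM in both tables and groups apart, 5 at each end of the stage contrast, and up to 4 list members by the smallest stage p and up to 4 alike ones by the smaller effect. Mki67, Cenpe, Acvr1c, Smtn, the single acinar and immune markers and the markers at 0 were named after their values were seen. So were the columnar and differentiation genes named for passing the count filter through 1 group. Replicates differed by more than sampling noise (chi-square per degree of freedom 6.42 to 21.3 within groups), so none were merged in the main fit. Between the 2 premalignant sgTgfbr2 lines it was 38.1 to 57.8, so their 4 libraries are not 4 independent replicates. The fit was tested on simulated data for this comparison, with 15671 genes: of genes changed alike by 1 or 2 (log2), 66% and 92% were recovered in their class, and of opposite ones 72% and 92%. Alternatives were other scalings, filters and tools (DESeq2 1.42.0, limma 3.58.1), each premalignant line alone, 1 summed library per line, a replicate block, and leaving out each library. Sequences are from RefSeq.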

Additional observations from a re-analysis of the deposited data

Results flagged for a closer look

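In 46 groups of 4 libraries examined, 2 had a library far from the other 3, and chance gives about 1 in 20. These were Smad3 in premalignant sgTgfbr2, with 192 CPM in line 2 replicate 1, and Ada in the same group, with 22.2 CPM in line 2 replicate 2.

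The guide's effect differed between the tables, by the test of the difference itself, in 7762 genes, and 1571 genes moved oppositely. Among the fixed genes the stage contrast (log2) was -0.61 for Smad3, -0.81 for Trp53 and 7.49 for Cdkn2a. Genes that moved alike but differed in size were Slc39a4 (3.83), Tspan1 (3.46), Cldn3 (6.91), Barx2 (-1.24) and Hmox1 (-1.98). Genes higher in the premalignant and lower in the tumor table were Psors1c2 (-10.31), Sema3e (-5.75), Shisa4 (-7.01), Il22ra1 (-5.98), Nlrp10 (-6.34), Flnc (-5.75), Bst1 (-4.81) and Adck3 (-4.82). Genes of the reverse kind were Krt16 (8.07), Krt6a (5.97), Bmyc (3.68), Cth (3.31), Krt14 (3.64), Odc1 (3.84), Gsta1 (4.59) and Smim3 (4.76). At the ends of the contrast stood Mylpf (-12.58), Ada (-10.05) and Asprv1 (-9.54), and Krt20 (11.67), Ppbp (11.41) and Ltf (11.14). The fitted values of Vnn1 (5.09), Rps6ka6 (-9.74), Calcb (14.29) and Skint3 (11.45) depend on the prior count, since a guide group had 3 or fewer counts.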

How the results depend on the processing

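Of the settings run on each named gene's stage contrast, 4506 kept direction and side of the threshold, 63 lost the call, 34 gained it and 1 reversed: Spp1 with line 2 alone (3.03, adjusted p = 2.03e-10 by edgeR's quasi-likelihood test). No gene turned from alike to opposite or back under any setting. With a minimum absolute log2 fold change of 1 the premalignant effect called 1720 genes, the tumor effect 5569, 551 moved alike (189 of them differing in size) and 338 oppositely. A mean of at least 5 CPM in both tables left 6054 tumor calls among fewer genes tested. Limiting the genes to levels within 4-fold between the tables, an alternative chosen after seeing the data, left 5501 tumor and 5128 stage calls among fewer genes tested. Leaving out 1 library gave 6861 to 7714 stage, 3810 to 5890 premalignant and 7950 to 9320 tumor calls, 1363 to 1961 alike and 1036 to 1588 opposite genes, 535 to 818 alike genes that differ in size, and rho of 0.019 to 0.060; the lowest premalignant, alike, opposite and size counts came without premalignant sgScr replicate 2. Without 1 tumor sgTgfbr2 library the other is assumed to vary like the other groups.

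Replicate numbers did not pair the libraries: same-numbered ones deviated with r of -0.112 to 0.228 in the premalignant and -0.147 to -9.67e-05 in the tumor table. A replicate block gave 1252 alike genes, 990 opposite and 453 differing in size. With the libraries of each premalignant line summed into 1, the premalignant effect called 4246 genes and the stage contrast 7157. That setting gave 1537 alike genes, 1145 opposite and 600 differing in size. Only 2 tumor sgTgfbr2 libraries, and marker genes of other tissues that differ between the tumor guide groups, limit the tumor effect.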
